A study of Mus musculus with 4 samples.

Results

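The basement membrane genes examined were those of the collagen IV chains Col4a1 and Col4a2, the laminin α chains Lama3, Lama4 and Lama5, the β chains Lamb1, Lamb2 and Lamb3, and the γ chain Lamc1. They were picked by gene symbol, and all 9 were found among the 56748 genes of the count table. RNA sequencing had been performed on lungs of BALB/cJ female mice, 7 weeks old at injection, that carried metastases of 4T1-FLuc, a luciferase-expressing mouse line of triple-negative breast cancer given through the tail vein. The saline group (2 samples, named a PBS control in the labels) was compared with the ADC/cmLumiOpto group (2 samples), in which the mice received the antibody-drug conjugate CD276-DM1, an anti-CD276 antibody carrying the microtubule poison mertansine, together with cmLumiOpto. The latter is an AAV gene vector, packed in exosomes that bear the same antibody, whose light-gated mitochondrial channel is driven by a cfos promoter and opened by luminescence. The labels give 16 mg/kg of the conjugate and add the abbreviation Olap, whereas the methods of the study give 8 mg/kg, and the methods count 4 samples per group. The labels call the material tumor cells, while the methods describe dissociated lung tissue. The surfactant gene Sftpc, the most abundant alveolar type 2 marker examined, was at 174 to 4321 CPM (counts scaled to library size with TMM factors). Its lowest value was in saline replicate 2, where other markers of lung epithelium were also low. Total counts were between 15263375 and 19675436 per sample. In such bulk samples, fewer cells of a type and less RNA per cell cannot be told apart.

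Basement membranes are thin sheets of matrix under epithelia and endothelia and around muscle and fat cells. Collagen IV chains wind into heterotrimers, most widely from the chains of Col4a1 and Col4a2, and these join end to end into a covalent network. Laminins are cross-shaped heterotrimers of an α, a β and a γ chain that form another network bound to cells by integrins and dystroglycan, and nidogens and perlecan tie both networks together. In the lung, the α5 chain is the main laminin α chain under alveoli and airways, the α4 chain is typical of vessels, and the α3 and β3 chains belong to the laminin of hemidesmosomes. Tumor cells that leave the bloodstream have to cross such a sheet, and they also deposit collagen IV and laminins of their own.

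The collagen IV genes lie head to head on chromosome 8 and share their control region. In the deposited table, which follows mm39 per the processing notes, Col4a1 covers chr8:11248423-11362826 on the minus strand and Col4a2 covers chr8:11362805-11499287 on the plus strand, so that their spans overlap by 22 bases. The same 22 bases are found in the RefSeq windows of GRCm38.p6 at chr8:11312805-11312826, within the untranslated part of the first exon of both genes (GENCODE M21). They are shown because the pair is described together below, and the capitals mark a GC box (GGGCGG or its complement).
Col4a2 (plus strand): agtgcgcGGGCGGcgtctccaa
Col4a1 (minus strand): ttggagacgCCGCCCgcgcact

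Upstream stretches were read for laminin chains that were lower after treatment (Lama5, Lamb1) and for those that were not (Lamb2, Lamb3), to show how their start regions differ. The chains were grouped by their values in these same 4 samples, and a link between sequence and difference was not tested. The stretches come from RefSeq windows of GRCm38.p6 and were limited to bases outside annotated exons, within 250 bases before the start site. They lie at chr2:180225860-180226109 (minus strand) for Lama5, chr12:31265043-31265233 (plus) for Lamb1, chr9:108479612-108479735 (plus) for Lamb2 and chr1:193301744-193301992 (plus) for the upstream one of 2 Lamb3 start sites. The capitals mark matches, on either strand, to GGGCGG or CCAAT.
Lama5: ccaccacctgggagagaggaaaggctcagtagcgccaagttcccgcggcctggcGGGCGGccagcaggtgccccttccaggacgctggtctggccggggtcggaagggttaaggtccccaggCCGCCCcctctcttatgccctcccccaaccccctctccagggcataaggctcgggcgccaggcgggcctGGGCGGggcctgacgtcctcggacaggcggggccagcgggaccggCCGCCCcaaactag
Lamb1: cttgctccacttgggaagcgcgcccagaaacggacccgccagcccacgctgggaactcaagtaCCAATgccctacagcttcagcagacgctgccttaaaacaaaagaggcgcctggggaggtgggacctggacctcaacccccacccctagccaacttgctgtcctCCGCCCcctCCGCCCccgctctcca
Lamb2: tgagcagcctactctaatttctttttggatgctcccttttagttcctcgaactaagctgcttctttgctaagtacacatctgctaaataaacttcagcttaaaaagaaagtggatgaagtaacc
Lamb3: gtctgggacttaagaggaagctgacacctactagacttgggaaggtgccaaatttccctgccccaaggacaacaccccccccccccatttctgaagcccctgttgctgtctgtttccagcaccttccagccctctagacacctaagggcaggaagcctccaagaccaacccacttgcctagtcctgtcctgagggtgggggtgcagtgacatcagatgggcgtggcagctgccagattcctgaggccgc

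Over the full 250 bases, GGGCGG was matched 4 times before Lama5, 2 times before Lamb1 and 2 times before Col4a2, and had 0 matches before Col4a1, Lamb2 and both Lamb3 starts. This motif was present in 32.7% of 32851 RefSeq windows of the same length. CCAAT (33.8% of windows) had 1 match before each of Col4a1, Col4a2 and Lamb1. TATAAA (12.4% of windows) and TGANTCA (6.75% of windows) had 0 matches before any of these genes. The windows of Col4a1 and Col4a2 held 31 and 26 CpG dinucleotides, those of Lama5 and Lamb1 held 19 and 14, and those of Lamb2 and Lamb3 held 2 to 3. The Lamb2 window was also poorer in G and C (43.6%) than the others (58.8% to 74.4%). Unlike the stretches shown, these windows were not limited to bases outside exons. Those of Col4a1 and Col4a2 lie within the annotated first exon of the other gene, and those of Lamb1, Lamb2 and both Lamb3 starts also hold annotated exon bases. A match is a description of letters in these windows and not of a bound site. The tables used for sequences matched 6 of the 9 genes, without Lama3, Lama4 and Lamc1, which were also lower after treatment.

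Collagen IV and most laminin transcripts were less abundant in the ADC/cmLumiOpto samples. The means of 7 of the 9 genes were at 55.8% to 69.3% of the saline means, and the highest treated value was under the lowest saline value for Col4a1, Col4a2, Lama3, Lama4, Lama5, Lamb1 and Lamc1. Such a separation toward lower values was found for 28.8% of all 15320 genes tested. The opposite separation was seen in 0 of the 9 genes and in 28.1% of all genes tested. The other two, Lamb2 and Lamb3, had overlapping groups. All 9 genes passed the expression filter, and the 9 together took 0.370% and 0.449% of all counts in saline replicates 1 and 2 and 0.226% and 0.301% in ADC/cmLumiOpto replicates 1 and 2.

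With edgeR's quasi-likelihood test and Benjamini-Hochberg adjustment over all genes, 0 of the 9 genes had an adjusted p under 0.05, as did 0% of the genes tested, and their adjusted p values were between 0.116 and 0.962. At an unadjusted p under 0.05, 7 of the 9 were lower and 0 higher, against 12.2% of all genes that were lower at that level. DESeq2 placed 4 of the 9 (Col4a1, Lama5, Lamb1, Lamc1) under an adjusted p of 0.05, where 5.05% of all genes were called lower, and edgeR's exact test placed 2 (Lamb1, Lamc1), where 3.68% were. Without the expression filter, 5 of the 9 were called by edgeR's quasi-likelihood test (4.05% of all genes called lower), namely the 4 of DESeq2 and Col4a2. With the replicate number as a block it called 1 of the 9, Lamc1, and 1.95% of all genes as lower. The median log2 fold change of the 9 genes was -0.62, beside 0.028 for all genes tested.

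**Figure D1:**
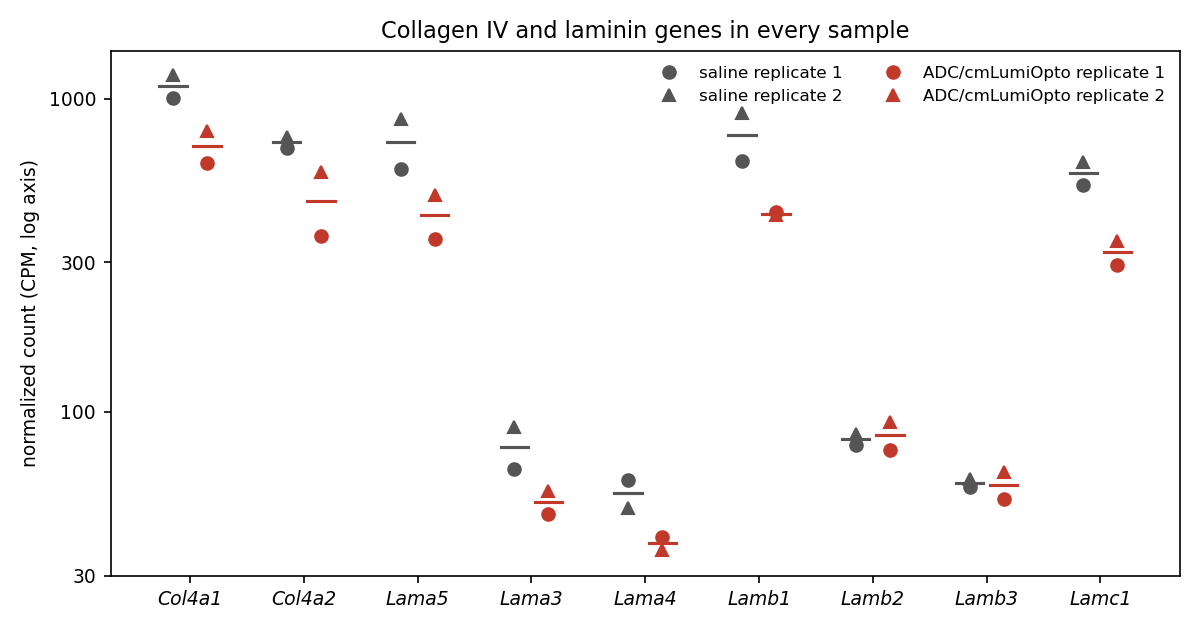
Normalized counts (CPM, log axis) of the 9 collagen IV and laminin genes. Each symbol is 1 sample, circles are replicate 1 and triangles replicate 2, gray is saline and red ADC/cmLumiOpto, and bars are group means. The red symbols lie below the gray ones for 7 genes and on both sides of them for Lamb2 and Lamb3.

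Col4a1 (ENSMUSG00000031502), the chain that contributes most strands to the common collagen IV trimer, was at 1005 and 1194 CPM in the saline samples and at 623 and 787 CPM in the treated samples. Both treated levels were below the lower saline level, and the treated samples differed from each other by 1.26-fold. The log2 fold change was -0.64 (standard error 0.19, 95% confidence interval -1.11 to -0.17, edgeR unadjusted p = 0.0146, adjusted p = 0.143). Col4a2 (ENSMUSG00000031503), its partner, was at 695 and 755 CPM in saline and 363 and 582 CPM after treatment. ADC/cmLumiOpto replicate 1 was thus much lower than replicate 2, by 1.60-fold, against 1.09-fold between the saline samples. Its log2 fold change was -0.62 (standard error 0.24, edgeR unadjusted p = 0.0422, adjusted p = 0.200). Without ADC/cmLumiOpto replicate 1 the log2 fold change of Col4a2 was -0.32, and without replicate 2 it was -1.0. Of the genes that overlap the pair on the genome, a long noncoding RNA gene within Col4a1 had at most 8 counts in any sample.

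The other collagen IV chains were far less abundant. Col4a3 and Col4a4, which with Col4a5 form the trimer of alveolar and kidney basement membranes, were not lower. Col4a4 was at 9.56 and 5.06 CPM in saline and 16.3 and 23.2 CPM in ADC/cmLumiOpto, so that both treated samples lay above both saline samples (log2 fold change 1.43, standard error 0.37, edgeR adjusted p = 0.123). Col4a3 was at 18.0 and 5.59 CPM in saline and 16.0 and 24.5 CPM after treatment, with overlapping groups. Col4a5 was at 62.8 and 82.8 CPM against 60.0 and 72.8 CPM, a log2 fold change of -0.13 (standard error 0.20). Col4a6, the rare partner of the α5 chain in skin and smooth muscle, had 148 and 208 counts in saline and 81 and 191 counts after treatment, again with overlap. The pair Col4a1 and Col4a2 and the pair Col4a3 and Col4a4 therefore lay on opposite sides of 0, a contrast that was not tested as such.

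Among the laminins, the chains of the widespread α5β1γ1 trimer are described first. Lama5 (ENSMUSG00000015647, chromosome 2), the α chain of this trimer, was at 596 and 858 CPM in saline and 357 and 491 CPM in ADC/cmLumiOpto. Lamb1 (ENSMUSG00000002900, chromosome 12), the usual β chain, was at 634 and 902 CPM in saline and 433 and 425 CPM after treatment. Lamc1 (ENSMUSG00000026478, chromosome 1), the γ chain shared by most laminins, was at 530 and 628 CPM in saline and 295 and 351 CPM after treatment. In all 3 genes saline replicate 2 was the highest sample, and the groups did not overlap. The log2 fold changes were -0.78 (standard error 0.25) for Lama5, -0.84 (standard error 0.21) for Lamb1 and -0.84 (standard error 0.18) for Lamc1, with edgeR adjusted p values of 0.148, 0.123 and 0.116. Lamc1 had the smallest unadjusted p of the 9 genes in edgeR's quasi-likelihood test, 0.00281. Saline replicate 2 carried a large part of the difference in Lama5, whose log2 fold change was -0.49 without that sample and -1.03 without saline replicate 1.

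The less abundant α chains were also lower in both treated samples. Lama3 (ENSMUSG00000024421, chromosome 18), the α chain of the hemidesmosomal laminin, was at 65.6 and 89.4 CPM in saline and 47.1 and 56.0 CPM after treatment. Its log2 fold change was -0.59 (standard error 0.21, edgeR adjusted p = 0.172), and -0.35 without saline replicate 2. Lama4 (ENSMUSG00000019846, chromosome 10), the chain of vessel and muscle basement membranes, was at 60.6 and 49.3 CPM in saline and 39.9 and 36.3 CPM after treatment. This is a log2 fold change of -0.53 (standard error 0.18, edgeR adjusted p = 0.163), or -0.67 without saline replicate 2, where Lamb1 was at -0.56 and Lama5 at -0.49. Lama4 was the only one of the 7 separated genes whose saline replicate 1 exceeded saline replicate 2.

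Lamb2 and Lamb3 stood apart from the other chains. Lamb2 (ENSMUSG00000052911, chromosome 9), which replaces the β1 chain in muscle, kidney and some vessel laminins, was at 78.3 and 85.2 CPM in saline and 75.8 and 92.7 CPM in ADC/cmLumiOpto. Its treated samples bracketed the saline samples, and the log2 fold change was 0.044 with a 95% confidence interval of -0.38 to 0.47 (edgeR adjusted p = 0.903). Lamb3 (ENSMUSG00000026639, chromosome 1), the β chain of the hemidesmosomal laminin, was at 57.5 and 61.0 CPM in saline and 52.8 and 64.1 CPM after treatment. Its log2 fold change was -0.018 with a 95% confidence interval of -0.43 to 0.40 (edgeR adjusted p = 0.962). The point estimates of the other 7 genes, -0.53 to -0.84, lay below the lower bounds of both intervals, but the difference between genes was not tested. This holds for the fit without a correction for gene length, which is described below. The span of Lamb3 overlaps that of Hsd11b1 on the opposite strand, with 298 and 213 counts in saline and 473 and 792 after treatment. The labels do not say whether strand was kept, and reads shared between overlapping genes could not be separated here.

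The laminin chains Lama1, Lama2 and Lamc3 had few counts, with Lama1 at 42 to 100, Lama2 at 64 to 182 and Lamc3 at 19 to 66 per sample, and the groups overlapped in each of them.

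The size of these differences was also examined against gene length. The 9 genes are long, from 6.082 kb for Lamb2 to 12.068 kb for Lama4 in the table, between the 71.9 and 94.95 percentiles of the genes tested, whose median was 4.113 kb. Across genes, which are not independent replicates, the log2 fold change went with gene length at a Spearman's rho of -0.34. With this trend removed in each sample, the median log2 fold change of the 9 genes was -0.47, and 3 of them, Col4a1, Lamb1 and Lamc1, rather than 7 had an unadjusted p under 0.05 in edgeR, against 10.2% of all genes that were lower at that level with the trend removed. The log2 fold changes were then -0.64 for Lamc1, -0.58 for Lamb1, -0.49 for Lama5, -0.49 for Col4a2, -0.47 for Col4a1, -0.32 for Lama3 and -0.23 (standard error 0.20) for Lama4. Lamb2 was then at 0.16 (standard error 0.16) and Lamb3 at 0.12 (standard error 0.15). These were the shortest of the 9 genes, with Lamb3 at 6.612 kb, just under Col4a2 at 6.619 kb.

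**Figure D2:**
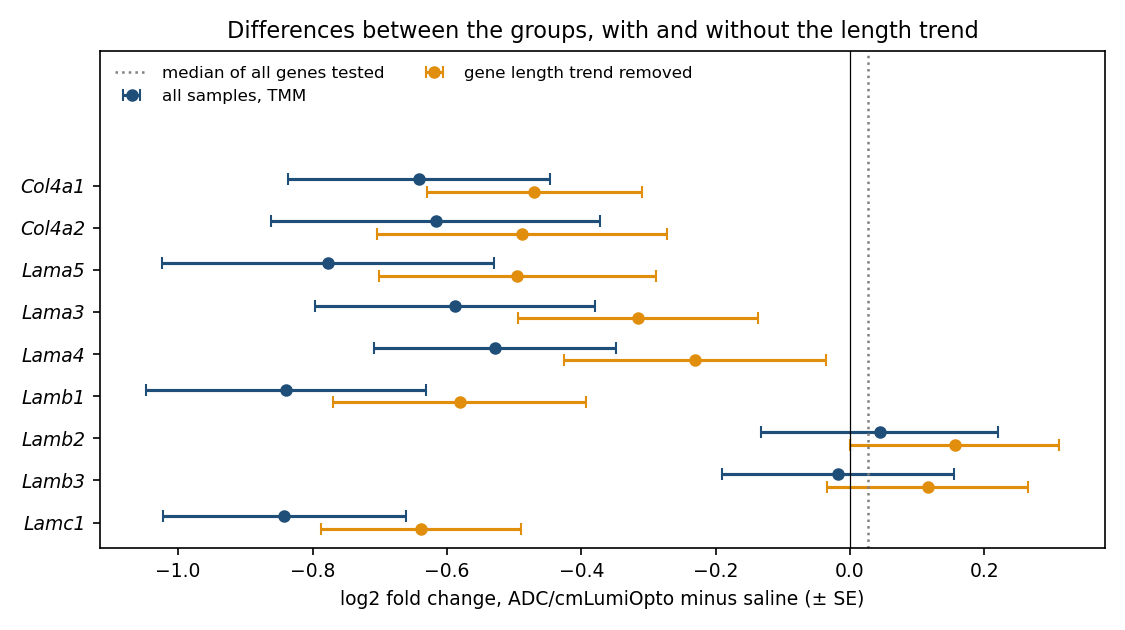
Log2 fold changes of the 9 genes between ADC/cmLumiOpto and saline (x axis) with standard errors, from edgeR with all 4 samples. Blue points are the values with TMM scaling and orange points those with the trend on gene length removed, and the dotted line is the median of all genes tested at 0.028. Removing the trend moves every point to the right, and 7 of the 9 stay below 0.

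Ratios of chains within a sample do not depend on the scaling between samples. They can still depend on the gene length trend, which was not removed from them or from the shares below. Lamb1 (9.917 kb) is longer than Lamb2 (6.082 kb) and Lamb3 (6.612 kb). With 2 samples against 2, the exact permutation test (two-sided) cannot give a p under 0.33, so the ratios are given as values, and 7 of them were computed. Col4a1 had 1.28 and 1.40 times the counts per kilobase of Col4a2 in saline and 1.52 and 1.2 times in ADC/cmLumiOpto. The treated ratios bracketed the saline ones, with means of 1.34 ± 0.085 (SD, n = 2) and 1.36 ± 0.23 (SD, n = 2). The ratio of Lamb1 to Lamb2 was 4.96 and 6.49 in saline and 3.50 and 2.81 in ADC/cmLumiOpto, and both treated samples were below both saline samples (exact permutation p = 0.33, adjusted p = 0.583). Lamb3 to Lamb1 was 0.136 and 0.101 in saline and 0.183 and 0.226 after treatment, also without overlap and with the same p.

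Put as shares of the β chain transcripts per kilobase, Lamb1 made up 74.8% and 79.6% in saline and 68.1% and 63.2% in ADC/cmLumiOpto. Lamb2 made up 15.1% and 12.3% in saline and 19.4% and 22.5% after treatment. Lamb3 made up the rest, 10.2% and 8.08% in saline and 12.5% and 14.3% after treatment. The 3 shares add up to the whole, so they are not separate observations, and the CPM of Lamb2 and Lamb3 overlapped between the groups while that of Lamb1 did not. Among the α chains, the share of the most abundant one overlapped between the groups. Lama5 held 82.5% and 85.9% of α chain transcripts in saline and 80.3% and 84.0% after treatment, and Lama4 held 7.91% and 4.65% against 8.47% and 5.85%. Lama3 held 9.63% and 9.48% in saline and 11.22% and 10.1% after treatment, without overlap. The ratio of Lama4 to Lama5 overlapped between groups (0.0959 and 0.0542 against 0.105 and 0.0697), whereas that of Lama3 to Lama5 was 0.117 and 0.110 against 0.140 and 0.121. Against Lamc1, the summed α chains stood at 0.991 and 1.16 in saline and 1.09 and 1.21 after treatment, and the summed β chains at 1.34 and 1.503 in saline and 1.80 and 1.60 after treatment. In all, 4 of the 7 ratios did not overlap between the groups, and 3 of these 4 contain Lamb1. For the CPM of single genes, the groups did not overlap, in either direction, in 57% of all genes tested.

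**Figure D3:**
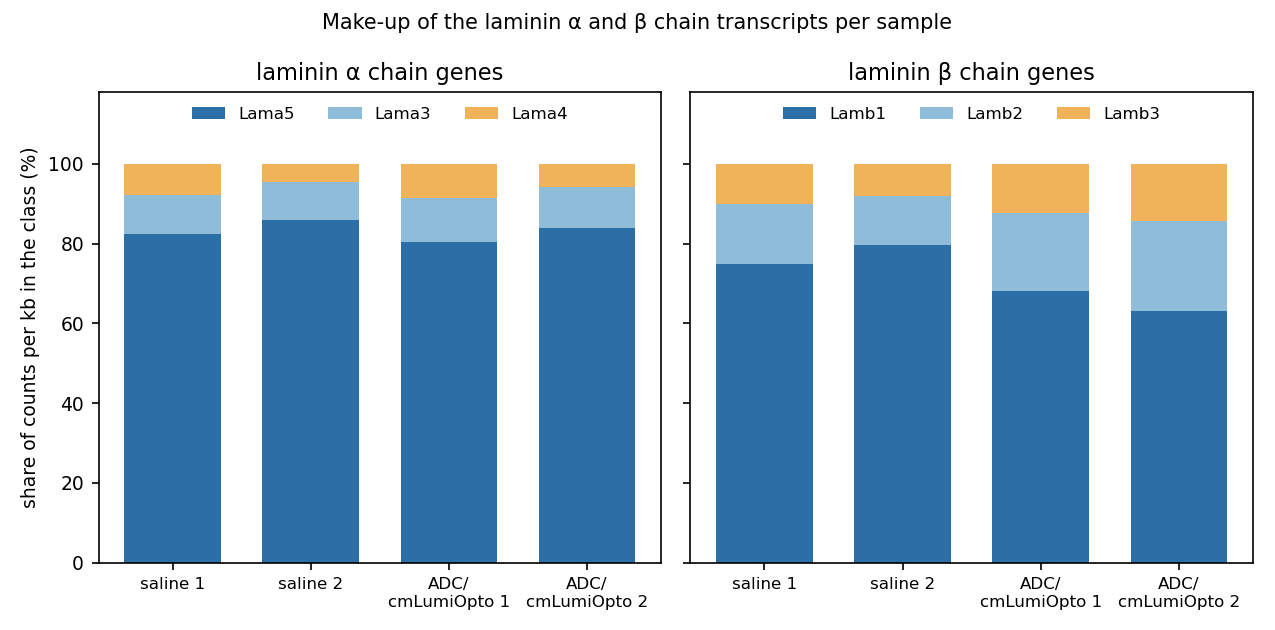
Share (%) of each laminin α chain gene (left) and β chain gene (right) in the counts per kilobase of its class, 1 bar per sample. The Lamb1 segment is shorter in both ADC/cmLumiOpto samples (68.1% and 63.2%) than in both saline samples (74.8% and 79.6%), while the Lama5 segment overlaps between groups.

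As levels, in CPM per kilobase of gene length, the 9 genes formed an abundant and a scarce class. In saline, Col4a1 was at 147 ± 17.9 (SD, n = 2) and Col4a2 at 109.5 ± 6.35 (SD, n = 2), followed by Lamb1 at 77.4 ± 19.1 (SD, n = 2), Lamc1 at 69.98 ± 8.44 (SD, n = 2) and Lama5 at 63.8 ± 16.3 (SD, n = 2). The last 3 did not differ beyond their spread. Far below them were Lamb2 at 13.4, Lamb3 at 8.96, Lama3 at 7.21 and Lama4 at 4.55 CPM per kilobase. In ADC/cmLumiOpto the order was the same, with Col4a1 at 94.5 ± 15.6 (SD, n = 2), Col4a2 at 71.4 ± 23.3 (SD, n = 2), Lamb1 at 43.3, Lamc1 at 39.0, Lama5 at 37.2, Lamb2 at 13.9, Lamb3 at 8.84, Lama3 at 4.80 and Lama4 at 3.16 CPM per kilobase. There, the ranges of Col4a1 and Col4a2 over the samples overlapped, as did those of Lamc1 and Lama5. Within each sample, Col4a1 was above Col4a2, as the ratios above show. Per kilobase of coding length instead, Lamb3 (16.9 in saline) stood above Lamb2 (15.2) and Lama4 (10.1) above Lama3 (7.76), and Lama5 (65.2 ± 16.6, SD, n = 2) lay apart from Lamc1 (120.1 ± 14.5, SD, n = 2), while Col4a2 (142 ± 8.21, SD, n = 2) and Lamb1 (139.6 ± 34.4, SD, n = 2) were level. The order and the gaps in both classes thus depended on which length was used. Relative to all genes tested, Col4a1 was at the 97.9 percentile of levels per kilobase in saline and the 96.4 percentile after treatment, and Lamc1 at the 95.3 and 90.7 percentiles.

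The rest of the basement membrane machinery was examined in 63 genes listed by role, of which 60 were tested. With edgeR's quasi-likelihood test 0 had an adjusted p under 0.05. At an unadjusted p under 0.05, 22 were lower and 4 higher, against 12.2% and 11% of all genes. DESeq2 called 9 lower and 3 higher, beside 774 lower and 579 higher among all 15320 genes. The median log2 fold change of the 60 genes was -0.39. With the gene length trend removed, the median of these 60 genes was -0.26. In either direction, 20 of them rather than 26 then had an unadjusted p under 0.05 (edgeR), as did 3060 of all 15320 genes. The roles differ in length, with Hspg2 at 14.739 kb and Serpinh1 at 2.443 kb, and their medians were not computed with the trend removed. Without that correction, the proteins that link collagen IV to laminin were the role with the lowest median, -1.01. Hspg2, which encodes perlecan, was at 697 and 1008 CPM in saline and 313 and 408 CPM after treatment (log2 fold change -1.24, standard error 0.24, edgeR adjusted p = 0.116). Nid1, nidogen-1, was at 120 and 129 CPM in saline and 57.5 and 71.4 CPM after treatment (log2 fold change -0.95, standard error 0.18, edgeR adjusted p = 0.116). Both groups were apart in each gene. Among these 4 linkers, 3 were lower at an unadjusted p under 0.05.

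Of 14 receptor genes, 5 were lower and 1 higher at an unadjusted p under 0.05 (edgeR), against 12.2% and 11% of all genes. Itga6, the integrin α6 chain that binds laminins, was at 244 and 321 CPM in saline and 182 and 169 CPM after treatment (log2 fold change -0.69, standard error 0.19). Bcam, a receptor for the laminin α5 chain, was higher, at 77.5 and 41.9 CPM in saline and 132 and 143 CPM after treatment (log2 fold change 1.21, standard error 0.29). The edgeR adjusted p values were 0.127 for Itga6 and 0.123 for Bcam. Bcam and its ligand gene Lama5 thus lay on opposite sides of 0.

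All 4 tested hemidesmosome genes were lower at an unadjusted p under 0.05 (edgeR), against 12.2% of all genes. Plec, the linker plectin, was at 604 and 805 CPM in saline and 390 and 437 CPM after treatment. Krt14, a basal keratin, was at 53.9 and 43.5 CPM in saline and 37.8 and 25.7 CPM after treatment. Plec is long (18.113 kb) and Krt14 short (1.758 kb), and the gene length trend was not removed from these values. On the log2 scale Plec differed by -0.77 (standard error 0.20) and Krt14 by -0.62 (standard error 0.24), with edgeR adjusted p values of 0.123 and 0.189. The fifth gene of this role, Krt5, was not tested, with 5 counts in saline replicate 1 and 0 in the other samples. Of 12 tested genes of other basement membrane matrix, 3 were lower and 1 higher at that level, against 12.2% and 11% of all genes. Col18a1, the source of endostatin, was at 383 and 598 CPM in saline and 276 and 226 CPM after treatment (log2 fold change -0.97). Ntn4, a netrin that disturbs laminin assembly, was higher, at 6.75 and 5.59 CPM in saline and 11.7 and 12.3 CPM after treatment (log2 fold change 0.96).

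The enzymes and chaperones of collagen synthesis differed little, with a median log2 fold change of -0.15. Against 12.2% of all genes, 2 of these 10 genes were lower at an unadjusted p under 0.05 (edgeR). These were Pxdn, the peroxidase that cross-links collagen IV (log2 fold change -0.42, standard error 0.18), and the lysyl hydroxylase Plod1 (log2 fold change -0.41, standard error 0.16). The collagen chaperone Serpinh1 was at 389 and 454 CPM in saline and 617 and 302 CPM after treatment, with overlap. Of 8 tested proteases and inhibitors, 4 were lower and 1 higher at that level, against 12.2% and 11% of all genes. Mmp2, a gelatinase that cuts collagen IV, was at 180 and 117 CPM in saline and 38.7 and 42.8 CPM after treatment (log2 fold change -1.86, standard error 0.24, edgeR adjusted p = 0.116). Mmp3, stromelysin-1, was at 66.3 and 86.1 CPM in saline and 41.4 and 33.0 CPM after treatment (log2 fold change -1.04, standard error 0.21, edgeR adjusted p = 0.116).

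**Figure D4:**
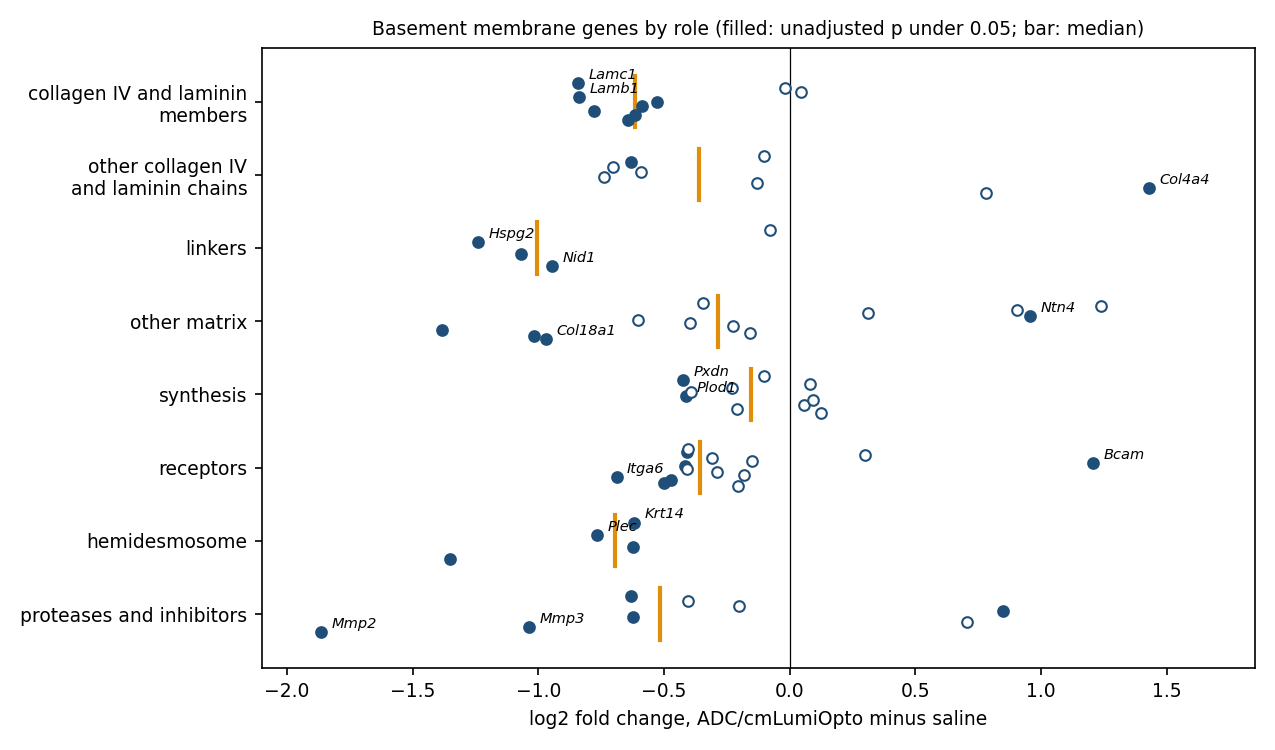
Log2 fold changes between ADC/cmLumiOpto and saline (x axis) of the 9 collagen IV and laminin genes and of 60 other basement membrane genes by role (y axis). Each point is a gene, filled at an unadjusted p under 0.05 in edgeR, bars are medians, and genes with a small p in each role are named. Without removal of the gene length trend, the linkers have the lowest median (-1.01), and synthesis genes lie closest to 0 (-0.15).

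Markers of the cell types that make basement membrane did not differ in one common direction. Summed CPM of 10 endothelial markers (Pecam1 the most abundant) was 628 and 506 in saline and 627 and 932 in ADC/cmLumiOpto, with 4 higher and 0 lower at an unadjusted p under 0.05 (edgeR). At that level, 11% of all genes tested were higher and 12.2% lower. For 9 mural cell and smooth muscle markers (Acta2) the summed CPM was 288 and 319 against 214 and 205, with 1 higher and 2 lower. For 8 fibroblast markers (Col1a2) it was 1638 and 1119 against 709 and 616, with 3 higher and 4 lower. The endothelial sums overlapped between the groups. The fibroblast sum was mostly Col1a2 (1246 and 767 CPM against 442 and 322 CPM), whereas the median log2 fold change of the 8 fibroblast markers was 0.12, with 4 below and 4 above 0. The most abundant mural marker, Acta2, was at 126 and 148 CPM against 89.7 and 52.2 CPM, and the mural median of -0.30 was 0.0076 without saline replicate 2 and -0.011 with the length trend removed.

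Epithelial markers also differed by type. For 6 carcinoma epithelium markers (Krt8) the sum was 2947 and 3310 CPM in saline and 2917 and 2847 CPM after treatment, with 0 of 6 at an unadjusted p under 0.05 (edgeR). At that level, 11% of all genes tested were higher and 12.2% lower, which holds beside each count below. For 5 alveolar type 1 markers (Ager) the sum was 245 and 104 against 651 and 625, with 4 higher. The sum of 8 alveolar type 2 markers (Sftpc) was 1713 and 459 against 5782 and 4994, with 7 higher, and that of 4 airway markers (Scgb1a1) 1149 and 80.2 against 6195 and 2951, with 4 higher. The other lists were 4 basal markers (Krt14, 48.7 to 60.0 against 31.4 to 45.2, 1 lower), 4 mesothelial markers (Msln, 135 to 228 against 137 to 183, 1 lower), 8 leukocyte markers (S100a9, 729 to 1448 against 1465 to 7454, 3 higher), 6 proliferation markers (Top2a, 1053 to 1063 against 601 to 660, 5 lower) and 4 erythroid markers (Hbb-bs, 341 to 1081 against 1845 to 2041, 3 higher). No marker was at 0 in all samples. The part of these cell types in the levels of collagen IV and laminin genes was not tested.

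The genes whose profile over the 4 samples was closest to that of Col4a1, by Euclidean distance of centred log2 CPM, were Phldb1 (distance 0.026), Rhobtb1 (0.038), Gm15910 (0.038) and Ncoa1 (0.042). Phldb1 was at 117 and 137 CPM in saline and 72.7 and 92.7 CPM after treatment. Closest to Lamc1 were Abl1 (0.025), Snrnp200 (0.028), Cmip (0.030) and Nup214 (0.031). By the same measure Col4a2 lay at 0.26 from Col4a1, farther than Lama3 (0.17), Lamc1 (0.21) and Lama5 (0.25). With 4 samples and 15320 genes, near profiles are found for many genes.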

How the data were processed

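The authors deposited raw counts, whole numbers of reads for 56748 genes, without normalization. Their methods name HISAT2 and GRCm38, and the processing notes name HISAT2 and mm39. The program that counted the reads is not given in the sources used here. Gene positions in the table differed from GENCODE M21 on GRCm38 for all but 1472 of 52073 shared identifiers, so positions from the table and RefSeq windows of GRCm38.p6 were kept apart. Coding lengths were taken from GENCODE M21.

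Differential expression was computed with edgeR 4.0.16 in R 4.3.3 (filterByExpr at min.count 10 and min.total.count 15, TMM, glmQLFit and glmQLFTest, prior count 0.125, Benjamini-Hochberg adjustment over 15320 genes, threshold 0.05). Total counts were 15263375 to 19675436 per sample, TMM factors were 0.973 to 1.04, and the floor of 3 counts was 0.152 to 0.197 CPM, which covers counting error only. A standard error is the log2 fold change divided by the square root of F. The labels do not state whether samples of a group came from separate mice, so p values measure the spread between these samples. Alternatives were DESeq2 1.42.0, other scalings, filters and tests, a gene length correction (lowess span 0.3), a replicate block and each sample left out. The 9 genes, the gene lists and the tests were chosen with earlier results of these data known. Named were all 9 genes, the 2 genes with the smallest p in each role, the other collagen IV and laminin chains (1 item of this rule is not reported here), the most abundant marker of each list, and the 4 genes closest to Col4a1 and to Lamc1 (log2 CPM, prior count 2). Hsd11b1, Serpinh1 and Krt5 were named after their values were seen. On simulated data for this comparison, with 14987 genes tested, 74.0% of 192 genes changed by 2 on the log2 scale were recovered. There, edgeR's quasi-likelihood test also called 11 unchanged genes, against 39 for DESeq2 and 45 for edgeR's exact test. The calls of DESeq2 and the exact test reported above carry this limit. The simulation was also unlike the data, since it changed few genes and drew each gene independently. In the data, 23.2% of all genes tested had an unadjusted p under 0.05 (edgeR). The rates of recovery and of false calls may therefore not hold for this comparison. Smaller changes, such as those of the collagen IV and laminin genes, were not simulated, so their recovery is not known.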

Additional observations from a re-analysis of the deposited data

How the results depend on the processing

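The 7 genes whose groups did not overlap kept a negative log2 fold change in all 13 alternatives, whereas Lamb2 and Lamb3 changed sign. This was largely set by the choice of the genes. Where both treated values lie below both saline values, leaving a sample out can hardly turn the sign. The other alternatives reuse the same samples, so the kept sign is no separate evidence. The number of genes with an adjusted p under 0.05, which was 0 with edgeR's quasi-likelihood test, was 1353 with DESeq2, 1170 with edgeR's exact test and 2259 without the expression filter. In these settings 4, 2 and 5 of the 9 collagen IV and laminin genes and 12, 10 and 19 of the other basement membrane genes were called. With a sample left out, 0 to 218 genes, 0 to 0 of the 9, 0 to 2 of the other basement membrane genes and 0 to 18 of the marker genes were called by edgeR (218 genes without saline replicate 1, 10 without saline replicate 2, 5 without ADC/cmLumiOpto replicate 1), and a lone sample was assumed to vary like the other group. The median log2 fold change of the 9 genes then ranged from -0.83 (without ADC/cmLumiOpto replicate 2) to -0.48. Lamb3 had log2 fold changes of 0.033 with library size alone, 0.065 with upper-quartile factors, 0.020 with at least 10 counts in every sample, 0.0090 with protein-coding genes and 0.12 with the length trend removed, and -0.17 to 0.12 with a sample left out, where Lamb2 ranged from -0.11 to 0.18. The non-overlapping chain ratios numbered 4 with coding length and 5 to 6 with a sample left out, where 1 sample against 2 makes non-overlap more frequent by construction. All 8 genes closest to Col4a1 and Lamc1 were shared at a prior count of 0.5. Of 84 medians of marker lists under other settings, 13 moved by more than the spread between replicates. The cause of these shifts was not tested.

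The replicate numbers of the labels were not taken to pair the samples, since deviations of same-numbered samples correlated at 0.099 over genes and only a pair of numbers exists. With the replicate block, edgeR called 607 genes, 1 of the 9 (Lamc1) and 7 of the other basement membrane genes.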
